A study of Homo sapiens with 6 samples.

Results

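NEAT1 and MALAT1 are a pair of long noncoding RNAs that stay in the nucleus, and their genes are neighbours on the plus strand of chromosome 11. They were selected on their peak counts, because they carry many of the peaks of G4PID in the human embryonic kidney line HEK293T. G4PID is an engineered biotin ligase that was built to seek out G-quadruplexes. Their peaks were all peaks of the deposited lists whose midpoint lay in either gene on its own strand. This gave 31 of 3930 peaks in 2 of the 1992 genes with any peak. The G4PID list held 30 of them among its 270 peaks (11.1%), 16 in NEAT1 and 14 in MALAT1. The list of SF3B4, a subunit of the SF3b complex that contacts the branch point region of introns, held 1 among its 3660 peaks (0.0273%), and it lay in NEAT1. Because the peak counts chose these genes, the counts, folds and positions below are a description and carry no test.

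NEAT1 is the RNA around which paraspeckles, a class of nuclear body, assemble. The gene makes a short polyadenylated isoform and a long isoform from the same start. Both share their 5′ sequence, and the long isoform, which reads through the polyadenylation signal, is the one required for paraspeckles. MALAT1 is a mainly unspliced, abundant RNA found at nuclear speckles, bodies rich in splicing factors. The 3′ ends of MALAT1 and of long NEAT1 are made by RNase P, which releases a small tRNA-like RNA. A G-quadruplex is a four-stranded fold that guanine-rich DNA or RNA can adopt, with stacked layers of guanines held together by loops.

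The measurements were made by eCLIP, a method that pulls down a protein with RNA crosslinked to it, sequences that RNA and sets it against input. There were 2 G4PID libraries, pulled down with an anti-HA antibody, 2 SF3B4 libraries, pulled down with an anti-SF3B4 antibody, and 2 input libraries with no antibody. The labels describe HEK293T cells transfected with pIRES2-G4PID-EGFP or with pIRES2-miniTurboID-EGFP, the ligase alone, and then given 500 µM biotin for 30 min. They repeat this text for every library and do not say which plasmid the SF3B4 and input cells received. G4PID was therefore an exogenous protein made from a plasmid, and no library of the ligase alone was analysed here. Each antibody had 1 deposited list, with no value per library. The spread between replicates and the read depth are unknown, and a stretch of RNA without a peak is not shown to be unbound.

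Each peak has 2 values set by the authors, read here as the −log10 of its p-value and its log2 fold over input. The annotation places NEAT1 (ENSG00000245532.8) at chr11:65422774-65445540 on build hg38, a span of 22767 nt, and MALAT1 (ENSG00000251562.8) at chr11:65497688-65506516, a span of 8829 nt. Positions below are counted in nt from the first base of the unspliced transcripts NEAT1-202, which is 22743 nt long and represents the long isoform, and MALAT1-202, which is 8708 nt long. G4PID peaks are numbered from the 5′ end of each RNA. Of the 15006 long noncoding RNA genes in GENCODE 29, 0.107% held a G4PID peak (16 genes) and 0.393% an SF3B4 peak (59 genes). Since NEAT1 and MALAT1 were chosen for their peaks, nothing is read from that background.

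The G4PID peaks of highest and lowest fold show the range of sequence involved. The following sequences, taken from the GENCODE 29 transcripts on GRCh38 (hg38), run 5′ to 3′ on the RNA strand with T for U, and capitals mark runs of 2 or more G. NEAT1 peaks 10 and 2 had the highest folds in the RNA, at 7.52 and 7.28 on the log2 scale. Peak 15 is the NEAT1 peak that shares bases with a quadruplex motif. NEAT1 peak 5 had the lowest fold of the RNA, 3.51. MALAT1 peaks 4 and 11 had the highest and the lowest fold there, at 5.34 and 3.17.
NEAT1 G4PID peak 10, first 150 nt: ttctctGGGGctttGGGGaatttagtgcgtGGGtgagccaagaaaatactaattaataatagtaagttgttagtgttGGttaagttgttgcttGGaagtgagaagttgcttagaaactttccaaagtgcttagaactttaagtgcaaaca
NEAT1 G4PID peak 2: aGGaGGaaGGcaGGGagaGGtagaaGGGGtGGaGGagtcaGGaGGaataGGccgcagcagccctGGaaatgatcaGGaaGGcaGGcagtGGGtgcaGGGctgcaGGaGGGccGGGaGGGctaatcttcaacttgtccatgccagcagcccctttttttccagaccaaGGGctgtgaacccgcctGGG
NEAT1 G4PID peak 15: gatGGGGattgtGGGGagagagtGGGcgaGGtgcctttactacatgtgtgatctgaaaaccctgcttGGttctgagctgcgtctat
NEAT1 G4PID peak 5: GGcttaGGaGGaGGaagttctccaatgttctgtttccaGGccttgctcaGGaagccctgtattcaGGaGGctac
MALAT1 G4PID peak 4: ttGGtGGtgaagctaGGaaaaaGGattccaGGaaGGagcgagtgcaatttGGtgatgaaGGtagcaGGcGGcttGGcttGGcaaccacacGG
MALAT1 G4PID peak 11: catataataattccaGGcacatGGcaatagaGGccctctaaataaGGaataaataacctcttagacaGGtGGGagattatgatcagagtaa
NEAT1 peak 2 is built largely of short G runs separated by A and C, with 23 runs of at least 2 G in 187 nt. The stretch of peak 10 has its longer G runs close to its 5′ edge and is rich in A and T after them. MALAT1 peak 4 has 13 runs of G in 92 nt, none longer than 2, so it has no run that the quadruplex motif used here could count. MALAT1 peak 11 has 6 such runs in 91 nt, of which 1 reaches 3 G.

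All NEAT1 peaks of both lists had their midpoint in the 5′ part that the short isoform shares with the long one. The boundary was set at position 3608, the end of NEAT1-203, the longest annotated transcript of the short class at 3524 nt. This shared part makes up 15.9% of the long isoform and held 16 of 16 G4PID peaks, which is 4.43 peaks per kb. G4PID peaks covered 2277 of its 3608 nt, or 63.1%. The 19135 nt past this boundary, 84.1% of the long isoform, are called the part of the long isoform only. They held the midpoint of 0 G4PID and 0 SF3B4 peaks. Their first bases are not exclusive to it, since NEAT1-201, NEAT1-207 and NEAT1-208 end at 3660, 3702 and 3716. In that region 67 nt were covered (0.350%), all by peak 16, which crosses the boundary. Peak 16 ends at 3675, before the ends of NEAT1-207 and NEAT1-208, so these 67 nt are not specific to the long isoform. Over the whole long isoform the G4PID density was 0.704 peaks per kb, against 1.61 peaks per kb for MALAT1. RNA of the short isoform and RNA of the 5′ part of the long isoform cannot be told apart here, because they have the same sequence.

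**Figure D1:**
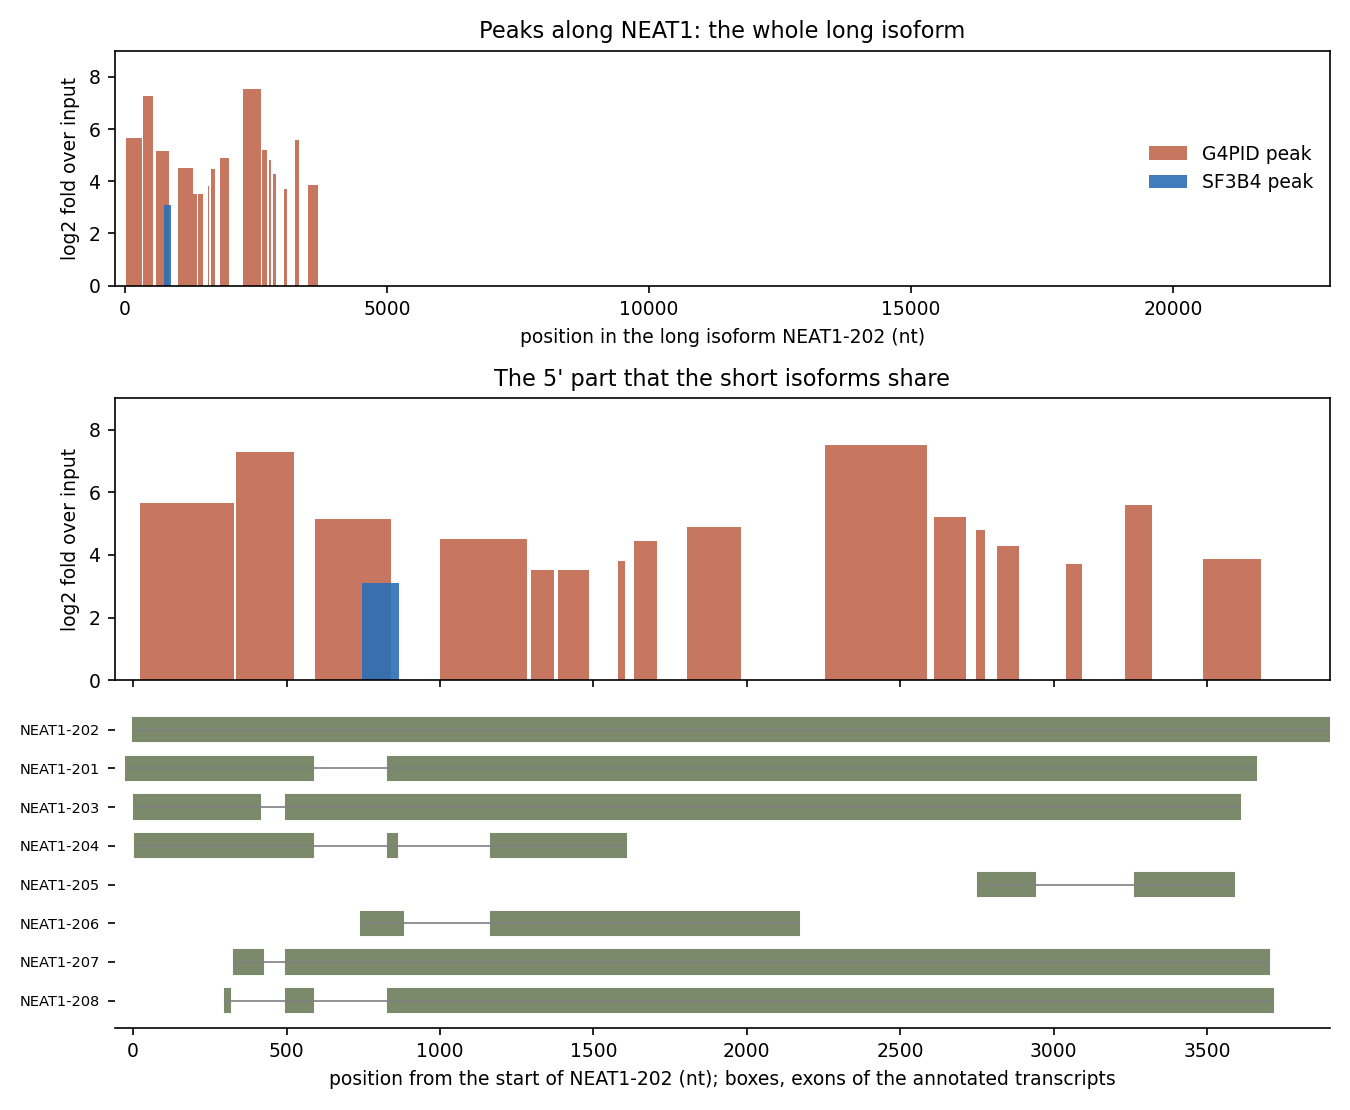
G4PID and SF3B4 peaks along NEAT1, over the whole long isoform (top) and over the shared 5′ part (middle), with the exons of the 8 annotated transcripts (bottom). Bars span each peak, their height is the authors' log2 fold over input, and the x axes are positions in nt. All 16 G4PID bars start before position 3608, with the 2 highest at 7.28 and 7.52, and the 1 SF3B4 bar lies partly under G4PID peak 3.

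The NEAT1 peaks began close to the start of the RNA and followed each other at short distances. Peak 1 spanned positions 21 to 328 (chr11:65422818-65423125) with a log2 fold of 5.66, and peak 2 spanned 336 to 522 (chr11:65423133-65423319) with a log2 fold of 7.28. Peak 3, at 593 to 841, had a log2 fold of 5.15. Peak 4, at 1001 to 1284, had a log2 fold of 4.51. These 4 peaks span the guanine-rich 5′ end of the RNA, and their folds all stood at or above 4.51.

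The next group of NEAT1 peaks had lower folds. Peak 5, at 1298 to 1371, and peak 6, at 1384 to 1485, had log2 folds of 3.51 and 3.53, the lowest of the RNA. Peak 7, at 1581 to 1601, was the narrowest at 21 nt and had a log2 fold of 3.82. Peak 8, at 1631 to 1707, and peak 9, at 1806 to 1981, had log2 folds of 4.45 and 4.91. Peak 9 was followed by the widest gap between neighbouring peaks of NEAT1, 273 nt.

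After this gap came peak 10, the widest of all G4PID peaks and the NEAT1 peak of highest fold. It spanned 334 nt, from 2255 to 2588 (chr11:65425052-65425385), with a log2 fold of 7.52. Peak 11, at 2609 to 2714, had a log2 fold of 5.22, peak 12, at 2748 to 2777, one of 4.80, and peak 13, at 2816 to 2885, one of 4.27. Folds were thus lower at each peak from peak 10 to peak 14, which lay at 3041 to 3092 with a log2 fold of 3.71. Peak 15, at 3234 to 3319 (chr11:65426031-65426116), stood apart from its neighbours with 5.59. Peak 16, at 3488 to 3675 (chr11:65426285-65426472), had a log2 fold of 3.87 and was followed by 19068 nt of NEAT1 with no further peak.

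Among the 16 NEAT1 peaks the log2 fold had a median of 4.66 and an SD of 1.21, where the SD is over peaks and not over replicates. Gaps between neighbours ran between 7 and 273 nt with a median of 70 nt, and 7 gaps were under 50 nt. Widths had a median of 104 nt, against 59.5 nt for the 240 G4PID peaks outside both RNAs. The 7 widest peaks of the whole G4PID list, of at least 176 nt, were all in NEAT1, and the widest elsewhere was 175 nt, in ATN1.

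The last NEAT1 peak ended 30 nt upstream of an AATAAA hexamer, the usual form of the polyadenylation signal. That hexamer lies at positions 3706 to 3711 (chr11:65426503-65426508), in the stretch where the annotated short transcripts end. Of these, NEAT1-201 ends at 3660, NEAT1-207 at 3702 and NEAT1-208 at 3716. The RNA strand of the long isoform holds 8 AATAAA in all, with 1 upstream of this one. The sequence around it, with the hexamer in capitals, is as follows.
NEAT1 hexamer: ttacagcacaAATAAAgtttgagttctaaa
Peak 16 therefore crossed the annotated ends of NEAT1-203 and NEAT1-201 and stopped short of the hexamer.

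Several short annotated RNA elements lie within the NEAT1 locus. G4PID peaks 2 and 3 shared bases with the element at positions 476 to 595, and peaks 4 and 5 with the element at 1163 to 1321. The element at 841 to 945 began at the last base of peak 3 and was also touched by the SF3B4 peak. The microRNA gene MIR612, at 21661 to 21760 near the 3′ end of the long isoform, had no peak. The tRNA-like small RNA that follows the 3′ end, at 22744 to 22801, had none either.

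On MALAT1 the peaks were spread over most of the RNA, with the densest stretch between positions 2178 and 4354. Split into 4 equal parts of 2177 nt from the 5′ end, the RNA held 1, 8, 3 and 2 G4PID peaks, or 0.459, 3.67, 1.38 and 0.919 peaks per kb. Peaks covered 1029 nt, 11.8% of the transcript, beside 10.3% of the whole long isoform of NEAT1. The first peak began at position 1527, and gaps between neighbours ran between 13 and 1590 nt, with a median of 264 nt. No SF3B4 peak lay in MALAT1.

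**Figure D2:**
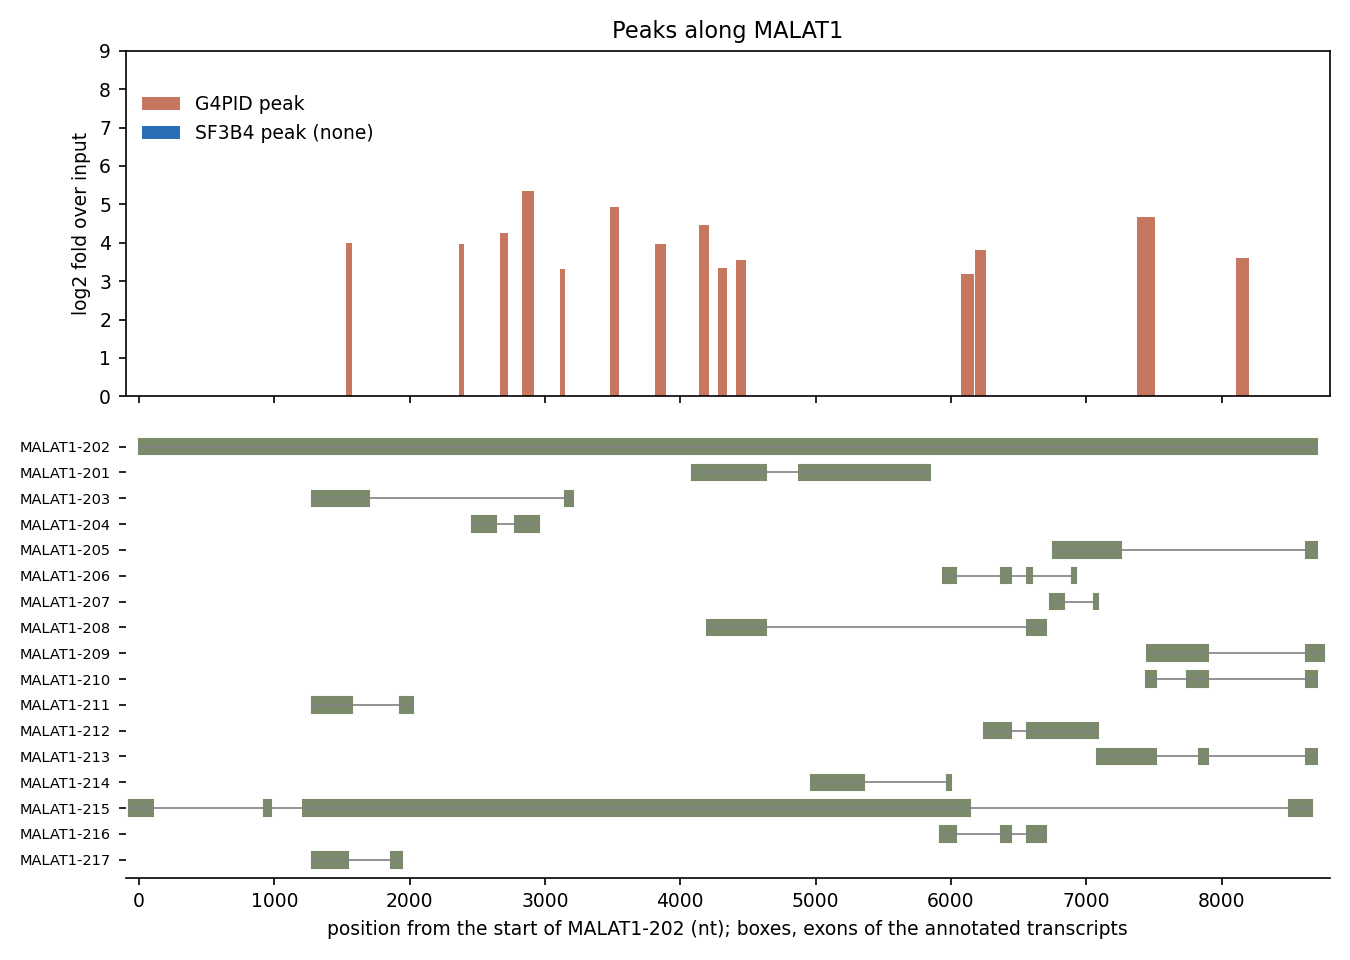
G4PID peaks along MALAT1 (top) and the exons of its 17 annotated transcripts (bottom). Bars span each peak, their height is the authors' log2 fold over input, and the x axis is the position in nt. The 14 bars stand between 3.17 and 5.34, with 8 of them between positions 2178 and 4354.

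MALAT1 peak 1 stood alone at 1527 to 1573 (chr11:65499288-65499334), with a log2 fold of 4.01. Peak 2, at 2365 to 2398, and peak 3, at 2668 to 2723, had log2 folds of 3.97 and 4.26. Peak 4, at 2830 to 2921 (chr11:65500591-65500682), had the highest log2 fold of the RNA, 5.34. Among these 4 peaks the folds of the first 3 were close, and peak 4 stood above them.

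Peak 5, at 3114 to 3147, had a log2 fold of 3.32, and peak 6, at 3480 to 3546, one of 4.94, the second highest. Peak 7, at 3811 to 3893, had a log2 fold of 3.98 and peak 8, at 4137 to 4212, one of 4.47. Peak 9, at 4277 to 4342, and peak 10, at 4411 to 4486, had log2 folds of 3.33 and 3.56. High and low folds alternated along this stretch, with no steady slope. The gap of 1590 nt, the widest of the RNA, followed peak 10.

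Of the remaining peaks, the adjacent peaks 11 and 12, at 6077 to 6167 and 6181 to 6262, had log2 folds of 3.17 and 3.82. Peak 13, at 7379 to 7505 (chr11:65505140-65505266), was the widest of the RNA at 127 nt and had a log2 fold of 4.68. Peak 14, at 8108 to 8205, had a log2 fold of 3.60 and ended 503 nt before the end of the transcript. The annotated element at 5153 to 5247 and the tRNA-like small RNA at 8356 to 8412 had no peak. Over the 14 peaks the log2 fold had a median of 3.97 and an SD of 0.645 over peaks.

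On the plus strand, the genes were well separated from other peaks. Peaks of the opposite strand outside the genes were not looked at. The first NEAT1 G4PID midpoint lay 198 nt inside the annotated gene start and the last 19162 nt inside its end. The nearest G4PID peak upstream of the gene on this strand was 1422630 nt away, in OTUB1. On the same strand, none lay between NEAT1 and MALAT1. The nearest SF3B4 peaks outside the genes on this strand lay 144080 nt upstream of NEAT1 and 110267 nt downstream of MALAT1. In MALAT1 the first midpoint lay 1624 nt inside the start and the last 599 nt inside the end, and the next G4PID peak downstream of the gene was 412901 nt away, in DRAP1. No peak of either list lay on the opposite strand of either gene.

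The 2 values of a peak ordered the NEAT1 and MALAT1 peaks differently. By the −log10 p, many were at 400, the highest value in the list. MALAT1 had 12 of its 14 peaks at 400 (85.7%), NEAT1 had 4 of 16 (25%), and the 240 other G4PID peaks had 3 (1.25%). Over all 270 peaks the share at 400 was 7.04%, and the 3 outside both RNAs lay in MT-RNR2, in RNU1-88P and in no annotated gene. The 2 MALAT1 peaks below that ceiling, peaks 2 and 6, had a −log10 p of 68.1 and 76.2. The NEAT1 peaks at 400 were peaks 1, 3, 6 and 15, which had log2 folds between 3.53 and 5.66.

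By the log2 fold, the peaks of these RNAs were not high in the list as a group. The median was 4.66 for NEAT1 and 3.97 for MALAT1, against 5.01 for the 240 other G4PID peaks, whose highest fold was 9.97. MALAT1 peaks ranked between 85 and 267 of 270 by fold. NEAT1 peaks 10 and 2 ranked 3 and 5, and the remaining NEAT1 peaks between 51 and 250. All 3 groups hold only peaks above the authors' threshold, and the fold is relative to input, so it is no measure of how much RNA was recovered.

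The 2 NEAT1 peaks of highest fold shared a −log10 p of 15.7 with 27 G4PID peaks outside both RNAs. This value equals the −log10 of 2.2e-16, the smallest p that the R software prints, and may be such a limit, though no source used here says how it arose. Folds at this value ran between 4.99 and 9.97, while folds at 400 ran between 3.17 and 6.19. The rank of peaks 2 and 10 by −log10 p is therefore uncertain. The other 10 NEAT1 peaks had values between 27.9 and 87.1.

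**Figure D3:**
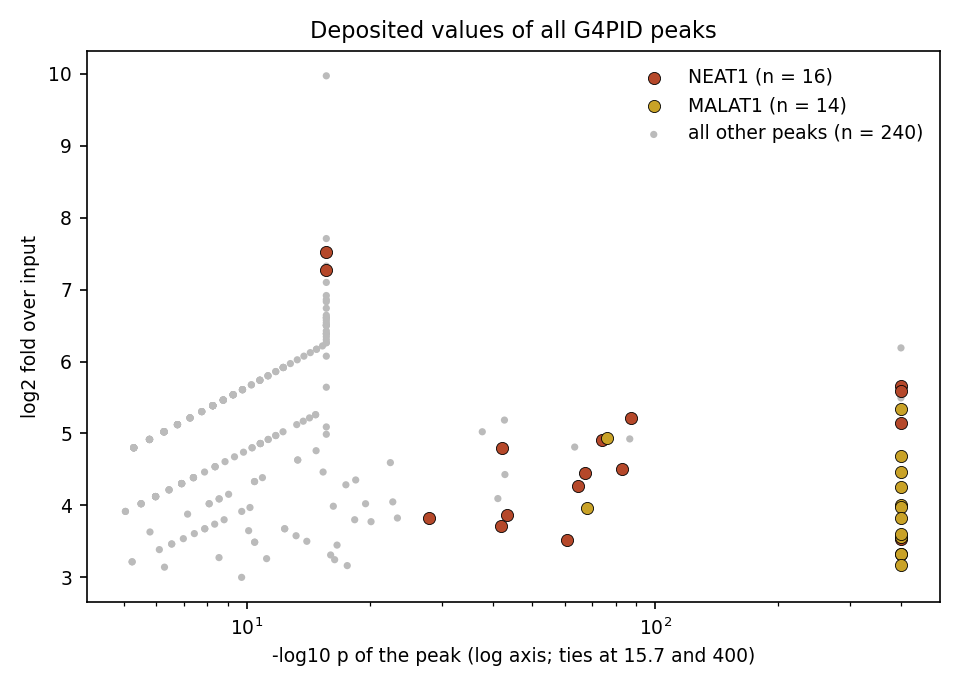
The authors' log2 fold over input (y axis) against their −log10 p (x axis, log scale) for every G4PID peak, 1 point each, with NEAT1, MALAT1 and the other peaks marked. MALAT1 has 12 of 14 points at the ceiling of 400, NEAT1 has 4 there and 2 at 15.7, and the other peaks mostly lie at low −log10 p, with a median of 9.14.

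The single SF3B4 peak lay at positions 745 to 865 of NEAT1 (chr11:65423542-65423662). Its log2 fold of 3.10 ranked 3482 of 3660 in the SF3B4 list, whose median was 3.93, and its −log10 p was 58.8. The midpoint was 25 nt upstream of the 3′ splice site at position 830, which ends an annotated intron of 243 nt in 3 of the 7 spliced NEAT1 transcripts. The peak held the last 85 nt of that intron and the 36 nt after it. Those 36 nt are all exon in 2 of the 3 transcripts. In the third, NEAT1-204, a further intron begins after position 860, so 31 nt are exon and the last 5 nt of the peak are intron. In the sequence below, capitals mark the bases after the 3′ splice site, and the intron before them ends in ag after a run of T and C.
NEAT1 SF3B4 peak, splice site: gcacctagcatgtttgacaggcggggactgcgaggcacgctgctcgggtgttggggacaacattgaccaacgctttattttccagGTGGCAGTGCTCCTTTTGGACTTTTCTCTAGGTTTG
CTNAC, a simple form of the branch point motif, was searched on the RNA strand and was not in the peak. It was present in 16.9% of all 104 nt windows of the shared part, and its absence here says nothing of SF3B4 itself.

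G4PID peak 3 shared 97 nt with this SF3B4 peak, which is 39.0% of the G4PID peak and 80.2% of the SF3B4 peak. Their midpoints were 88 nt apart, with the midpoint of G4PID peak 3 upstream of the SF3B4 peak. The next G4PID peak, peak 4, lay 135 nt downstream of the SF3B4 peak. So 1 of 16 NEAT1 G4PID peaks and 1 of 1 NEAT1 SF3B4 peaks were in the overlap.

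Most NEAT1 G4PID peaks were in sequence that every annotated transcript covering it keeps. Of 16 midpoints, 4 lay in an intron of at least 1 spliced transcript, and 1 peak lay wholly in such an intron. In MALAT1, 9 of 14 midpoints lay in an intron of at least 1 of the 16 spliced transcripts, and 8 peaks lay wholly in one. All these positions are exonic in the unspliced transcripts, and the peaks do not show which form was bound. The median log2 fold was 4.83 in introns and 4.63 elsewhere in NEAT1, and 3.97 in introns and 3.98 elsewhere in MALAT1, differences that are small beside the SD over peaks. A midpoint 10 to 60 nt upstream of an annotated 3′ splice site, where branch points usually lie, was found for NEAT1 peak 4 and for MALAT1 peak 5.

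Canonical quadruplex motifs are few in both RNAs and mostly lie outside the peaks. The motif searched had 4 runs, each of 3 or more G, with loops of 1 to 7 nt, on both strands. NEAT1 had 4 on the RNA strand, 3 of them in the shared part and 1 near the 3′ end of the long isoform, and MALAT1 had 3. Neither RNA had one on the opposite strand. Those described here follow, with the G runs in capitals.
NEAT1 motif at 2167 to 2191: GGGaGGGatgaGGGtgaagaaGGGG
NEAT1 motif at 3226 to 3249: GGGaaGGGGatGGGGattgtGGGG
NEAT1 motif at 22619 to 22633: GGGaGGGaGGGaGGG
MALAT1 motif at 6324 to 6348: GGGaaGGGaGGGGGtgcctgtGGGG
MALAT1 motif at 6511 to 6532: GGGatGGGaggaGGGGGtGGGG
MALAT1 motif at 7702 to 7725: GGGGaGGGaaaGGGGGaaagcGGG
No G4PID peak held a whole motif on either strand, in 0 of 16 NEAT1 peaks and 0 of 14 MALAT1 peaks. Whole motifs were also rare in the 156 other G4PID peaks whose whole sequence annotated transcripts cover. Of those, 1 held a motif on the RNA strand (0.641%) and 13 on the opposite strand (8.33%). The NEAT1 motif at 3226 to 3249 (chr11:65426023-65426046) shared 16 of its 24 nt with peak 15, across the upstream edge of that peak. The motif at 2167 to 2191 lay 64 nt from peak 10. The motif at 22619 to 22633, with loops of a single A, lay 18944 nt from any peak. The MALAT1 motifs lay 62, 249 and 197 nt from the nearest peak, in order.

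With loops of up to 12 nt, NEAT1 had 10 motifs on the RNA strand, and 4 of them shared bases with a peak. The added ones in peaks lay at 14 to 47, across the upstream edge of peak 1, at 425 to 450, inside peak 2, and at 2250 to 2287, across the upstream edge of peak 10. Hence 3 of the 4 lay across the upstream edge of a peak. MALAT1 had 4, of which none shared bases with a peak, and the nearest, at 3766 to 3800, lay 11 nt upstream of peak 7.

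**Figure D4:**
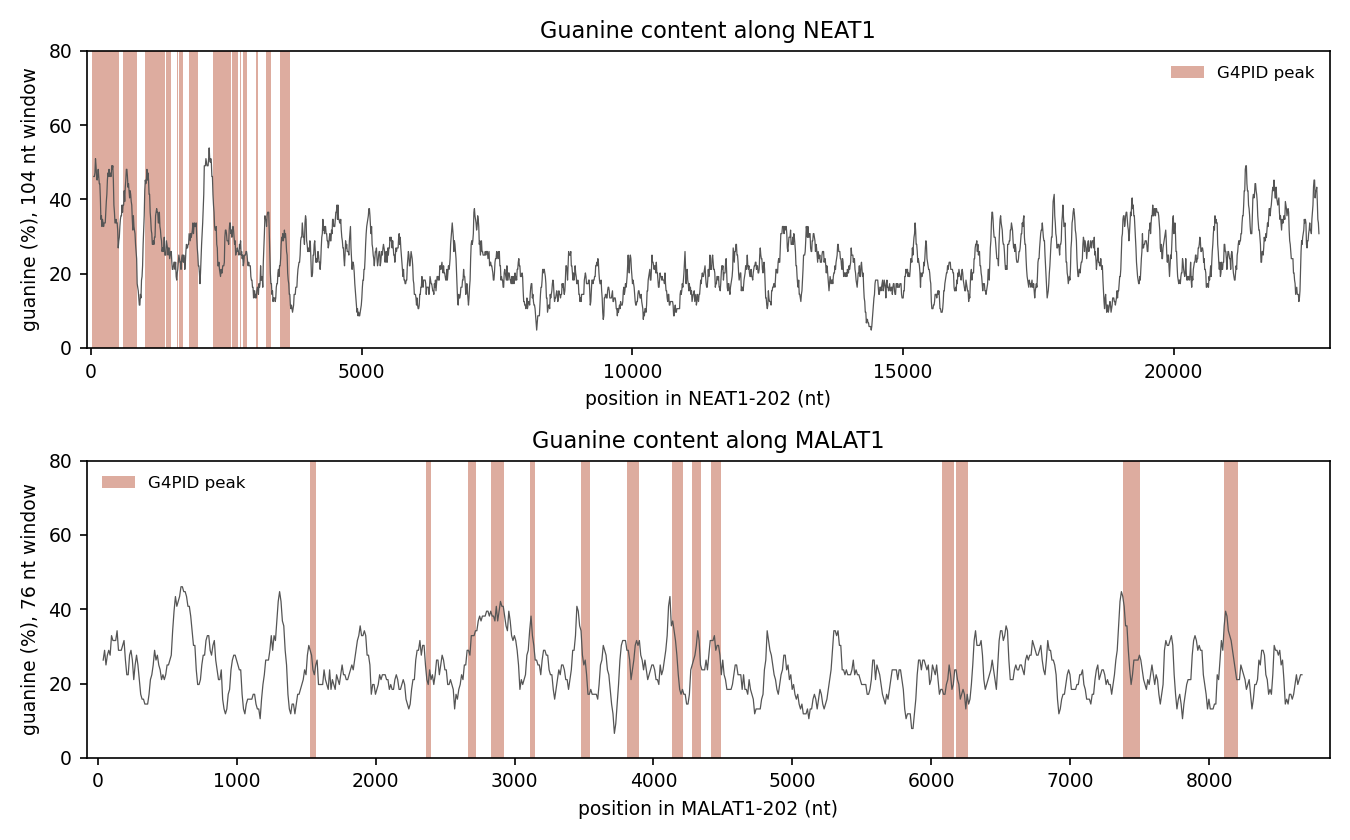
Guanine content along NEAT1 in windows of 104 nt (top) and along MALAT1 in windows of 76 nt (bottom), against position in nt. Shaded bands are G4PID peaks. Windows of the shared 5′ part of NEAT1 average 30.2% G and those of the long isoform only 22.3%, and guanine-rich stretches are seen both in and outside the shaded bands.

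Guanine was on average more frequent in the peaks than outside them in both RNAs. This did not hold everywhere. In the gap of 273 nt between NEAT1 peaks 9 and 10, the 104 nt window centred on position 2183 held 53.8% G. That gap also holds the quadruplex motif at 2167 to 2191. In the shared part of NEAT1, the 2277 bases in G4PID peaks were 32.9% G and the 1331 bases outside them 26.1%. In MALAT1, the 1029 bases in peaks were 27.9% G and the 7679 bases outside them 23.4%. In windows of 104 nt, the median NEAT1 peak width, the 16 windows centred on peaks held 28.8% ± 7.37 G (SD over windows). All 3556 windows of the shared part held 30.2% ± 9.86, and the 19084 windows of the long isoform only held 22.3% ± 7.57. Peaks cover 63.1% of the shared part, so most of its windows hold peak sequence and are no background free of peaks. In MALAT1, where windows were 76 nt, the 14 peak windows held 27.2% ± 5.90 G and all 8633 windows held 23.9% ± 7.01. Overlapping windows of 1 RNA are not replicates, and no test was made.

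Further sequence measures were taken over the same windows. A motif was in 1 of 16 NEAT1 peak windows (6.25%), in 7.06% of shared-part windows and in 0.472% of windows of the long isoform only. The G4Hunter score, which adds up G runs and subtracts C runs over 25 nt, reached 1.5 in 2 of 16 peak windows (12.5%), in 20.8% of shared-part windows and in 2.33% of the rest. In MALAT1 a motif was in 0 of 14 peak windows and 1.89% of all windows, and a score of 1.5 in 1 of 14 peak windows (7.14%) and 7.76% of all windows. At the lower score of 1.2, 6 of 14 MALAT1 peak windows passed (42.9%) and 15.0% of all windows. The triplet GGA, the unit of another class of guanine-rich fold, whose letters also occur within G runs, was on the RNA strand in 81.3% of NEAT1 peak windows and 87.3% of shared-part windows. For MALAT1 these shares were 78.6% of peak windows and 75.1% of all windows.

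Within NEAT1, the peaks with a high G4Hunter score were the upstream ones and peak 15. As deposited, peaks 1, 2, 3, 4 and 15 reached a score of 1.5, with 36.0% to 41.2% G and log2 folds between 4.51 and 7.28, median 5.59. The other 11 peaks had 14.3% to 32.4% G and log2 folds between 3.51 and 7.52, median 4.27. The fold ranges overlap, since peak 10 had the highest fold with a score of 1.44. Wider peaks hold more 25 nt stretches and so more chances of a high score, and 4 of these 5 peaks were at least 187 nt wide.

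Over the 16 NEAT1 peaks, the log2 fold was related to the G4Hunter maximum with a Spearman rho of 0.71 and a Pearson r of 0.61. The rho with guanine content was 0.60, and that with width 0.61. Without the 2 peaks at a −log10 p of 15.7, rho over 14 peaks was 0.70 with the G4Hunter maximum, 0.69 with guanine content and 0.51 with width. In MALAT1 the same rho values over 14 peaks were −0.09 for G4Hunter, 0.12 for guanine content and 0.20 for width. These peaks share 1 RNA and the same libraries, so the values are a description and no p is given.

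Set beside the other G4PID peaks, those of NEAT1 and MALAT1 were poorer in GC, though not in guanine. The median guanine content was 29.02% for NEAT1 and 28.29% for MALAT1 peaks, against 27.06% for the 156 others described next. The median GC content was 49.5% for the 16 NEAT1 peaks and 42.1% for the 14 MALAT1 peaks, against 64.6% for the 156 of 240 other peaks whose whole sequence annotated transcripts cover. A G4Hunter score of 1.5 on the RNA strand was reached by 5 of 16 NEAT1 and 0 of 14 MALAT1 peaks, against 9 of 156 others (5.77%). Widths differ, with medians of 104 nt, 76 nt and 59.5 nt (over all 240 others), and wider peaks have more chances of a high score. On the opposite strand it was reached by 0 of 16 and 0 of 14, against 32 of 156 others (20.5%). Those differences were not tested, because peaks of 1 RNA are not independent.

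By peak counts in the 2 lists, the genes most like NEAT1 among the 27 other genes with at least 3 G4PID peaks were DHRS2, MALAT1 and PLEC. DHRS2, a dehydrogenase gene, had 15 G4PID and 0 SF3B4 peaks, and PLEC, the gene of the cytoskeletal linker plectin, had 14 and 0. Those most like MALAT1 were PLEC, DHRS2 and VMP1, an autophagy gene with 7 and 0. Likeness was the Euclidean distance between log2(peaks + 1) in the 2 lists. Per kb of gene span, introns included, NEAT1 had 0.703 G4PID peaks and MALAT1 1.59, against 0.966 for DHRS2, 0.227 for PLEC and 0.0518 for VMP1. At the ceiling of 400 NEAT1 had 4 peaks and MALAT1 12, while DHRS2, PLEC and VMP1 had 0.

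A list of other long noncoding RNAs, mostly nuclear, was set beside these RNAs. Of 17 annotated genes in that list of 18, 1 had a G4PID peak, PVT1, with 2 peaks and a highest log2 fold of 4.02, where 0.107% of all long noncoding RNA genes had one. In the SF3B4 list 5 of the 17 had a peak, where 0.393% of all long noncoding RNA genes had one. They were led by the snoRNA host genes GAS5 with 9 peaks (highest log2 fold 5.56) and SNHG1 with 8 (5.87). FIRRE had 2 SF3B4 peaks, and JPX and HOTAIRM1 had 1 each.

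Some genes of proteins found in paraspeckles and nuclear speckles had peaks in the SF3B4 list, and none had one in the G4PID list. Of 20 such genes 0 had a G4PID peak and 12 had an SF3B4 peak, while 0.496% and 8.9% of the 19969 protein-coding genes did. The lists differ in length, with 270 and 3660 peaks, and no test was made. The paraspeckle protein genes SFPQ and NONO had 5 and 3 SF3B4 peaks, with highest log2 folds of 5.71 and 5.53. DAZAP1 had 7 (6.18) and SRRM2, a scaffold protein of nuclear speckles, had 6 (4.80). These peaks mark the transcripts of those genes and not where their proteins bind.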

How the data were processed

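RNA bound by G4PID and by SF3B4 in HEK293T cells was measured by eCLIP in 2 libraries per antibody, with 2 input libraries. The submitters' processing notes name cutadapt 3.4, STAR 2.7.0d and the builds hg19 and hg38. How peaks were called and filtered, how reads that map to several places were handled and how the 2 libraries were joined was not given in the sources used here. For each antibody the authors deposited a single peak list, without a header or counts. The first value of a deposited peak was taken as its −log10 p-value and the second value of a deposited peak as its log2 fold over input. This reading rests on the values and on the column order usual for eCLIP. Sequencing depth is unknown, so no interval is given.

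Each peak was placed by its midpoint, on the same strand, in the GENCODE 29 annotation of hg38. Sequence was copied from NEAT1-202 and MALAT1-202 in the GENCODE 29 transcripts. Over 38688 bases of all NEAT1 transcripts and 21527 of all MALAT1 transcripts laid on them, 0 differed. These totals include the 22743 and 8708 bases of NEAT1-202 and MALAT1-202 themselves, which could not differ. Peaks overlapped if they shared 1 nt. Motifs were sought in the peak as deposited and in windows of the median peak width at every position of the RNA. Named genes were the 3 nearest to each RNA by peak counts and the members of 2 lists, mostly nuclear long noncoding RNAs and genes of paraspeckle and speckle proteins. The members and lists were chosen with earlier results of these data known. Some items of the lists and motif searches are counted but not reported here. The quadruplex motif search was checked on simulated sequence of A and T with motifs planted in sense. Such sequence has no G runs of its own, so false hits were not tested. No test compared groups, because each antibody had 1 list. Computations used Python 3.11.15, numpy 2.4.6, pandas 2.3.3, matplotlib 3.10.9 and RNAfold 2.7.2. The alternatives tried are given in the closing section.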

Additional observations from a re-analysis of the deposited data

How the results depend on the processing

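Over 17 counts and 88 alternatives, 66 values stayed within 1.5 times the count reported and 22 did not. Some of the 66 could not have changed, so their number is no measure of stability. A stricter filter cannot alter a count of 0. Requiring a −log10 p of at least 10 removed no peak, since the lowest value in these RNAs was 15.7. Requiring a log2 fold of at least 5 left 6 of 16 G4PID peaks in NEAT1, all 6 in the shared 5′ part, 1 of 14 in MALAT1, and 0 SF3B4 peaks in NEAT1 or its shared part. Merging peaks within 50 nt left 9 G4PID peaks in NEAT1 and its shared part. Ending the short isoform at NEAT1-204 put 7 G4PID peaks in the shared part and 9 in the long-only part, and ending it at NEAT1-206 gave 9 and 7. Both are short annotated fragments. With the G4PID midpoint required inside the SF3B4 peak, the overlapping peaks numbered 0 in place of 1. Counts of peaks with a quadruplex motif in sense, 0 in both RNAs, became 1 in NEAT1 with loops to 12 nt, 1 in NEAT1 with 50 nt flanks, and 7 in NEAT1 and 4 in MALAT1 with runs of at least 2 G. Antisense, runs of at least 2 G gave 5 in NEAT1. In sense, this form was in 31.3% of NEAT1 peak windows, beside 40.7% of windows of the shared part. It was in 28.6% of MALAT1 peak windows, beside 15.9% of all MALAT1 windows. Antisense, the shares were 6.25% of NEAT1 peak windows and 15.4% of windows of the shared part. A quadruplex in the fold predicted by RNAfold, an alternative chosen after seeing the data, was found in the window centred on 1 NEAT1 and 1 MALAT1 peak (6.25% and 7.14% of peak windows, beside 17.1% of windows of the shared part of NEAT1 and 6.13% of MALAT1 windows). A G4Hunter score of at least 1.2 was reached by 5 MALAT1 peaks in sense and 1 NEAT1 peak in antisense, and a score of 1.5 by 4 MALAT1 peaks with 50 nt flanks, all against 0 as reported. The cause of these changes was not tested beyond what each alternative changes by construction. No paired analysis was possible because each deposited list joins the libraries of an antibody and no result comes from a test. For the same reason no replicate could be left out. Depth is unknown, and a peak below the authors' thresholds cannot be seen.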

Other observations

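With loops of up to 12 nt, the strand opposite to NEAT1 held 3 quadruplex motifs, all in the part of the long isoform only, at positions 14151 to 14190, 19524 to 19553 and 22276 to 22298, and MALAT1 held 0. None of the 3 shared bases with a G4PID peak. On the RNA strand, 4 of the 10 NEAT1 motifs of this form lay in the long isoform only, at 4559 to 4594, 19560 to 19592, 21342 to 21376 and 22619 to 22633, and none of these shared bases with a peak either.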
